A study of Homo sapiens with 18 samples.

Results

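The genes that make cholesterol and fatty acids were followed in the neuroblastoma lines BE2C and Kelly, both human, established and with an amplified MYCN oncogene, after infection with short hairpin RNAs against AHR. The set holds 35 of the 39368 genes in the deposited count tables. Of these, 6 belong to the mevalonate pathway, 5 lead from isoprenoids to lanosterol, 8 lead from lanosterol to cholesterol, 5 control the SREBP transcription factors, 3 move sterols within the cell and 8 make or modify fatty acids. The genes were chosen by symbol for their place in these pathways, with earlier results of these data known. The part of that choice in the shares of members called below was not tested. All 35 passed the filter on low counts in both lines. In each line 3 groups of 3 libraries were sequenced, 18 libraries in all. The groups were cells with the hairpin shAhR-1, cells with the hairpin shAhR-2 and control cells with the vector pLKO-GFP, and both hairpins of a line were set against the same 3 control libraries. Neither the sequences of the hairpins nor the time after infection is given in the sources used here. Nothing in the labels tells whether replicates were separate cultures, so the p-values rest on a spread between libraries that may be technical. The series title asks whether the aryl hydrocarbon receptor, encoded by AHR, keeps such cells dedifferentiated.

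Levels are given in CPM, counts scaled to library size with TMM factors over all 18 libraries. Changes are log2 fold changes ± SE against the control of the same line, unless another comparison is named, from edgeR's quasi-likelihood test. A gene is said to have risen or fallen where the Benjamini-Hochberg adjusted p over all genes tested was below 0.05. All values come from bulk RNA, in which fewer cells of a type and less RNA per cell cannot be told apart.

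AHR itself was sparse. In BE2C it had 8, 0 and 0 counts with shAhR-1 and 0, 0 and 0 counts with shAhR-2, against 4, 4 and 6 counts in control, and it did not pass the filter on low counts. In Kelly it had 18, 11 and 22 counts in the libraries labelled shAhR-1 and 0, 4 and 0 counts with shAhR-2, against 4, 26 and 29 counts in control. AHR was thus lower in Kelly with shAhR-2 (−3.84 ± 0.81, adjusted p 3.41e-05), but not shown to be lower in Kelly libraries labelled shAhR-1 (−0.10 ± 0.54, adjusted p 0.889). Changes in those libraries are therefore tied to the label and not to a measured loss of AHR. The same holds for BE2C with either hairpin, where AHR was not tested.

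Library totals ran from 32799682 to 45469353 counts, so most members were counted deeply. Replicate 1 of BE2C with shAhR-2 stood apart from its 2 mates, with a chi-square per gene of 22.5 and 24.6 against each of them and 2.85 to 6.90 in all other pairs of replicates. Mitochondrially encoded genes took 25.1% of its counts and 20.5% of those of each mate. Their share also moved with the groups, at 24.3% to 24.9% with shAhR-1 against 18.8% to 19.4% in control in BE2C, and at 17.4% to 17.7% in Kelly libraries labelled shAhR-1 and 15.2% to 15.8% with shAhR-2 against 14.5% to 15.6% in control in Kelly. With these genes left out of all libraries, 18 members, in place of 16, fell in all 4 comparisons. Without that library 25 members, in place of 22, fell with shAhR-1 in BE2C and 22, in place of 19, fell with both hairpins there, while 28 fell and 3 rose with shAhR-2, as with it.

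Cholesterol is built from acetyl-CoA through mevalonate, isoprenoid diphosphates, squalene and lanosterol, and fatty acids are built from the same acetyl-CoA. Both routes are switched on by the SREBP proteins, which SREBF1 and SREBF2 encode. These factors are made as precursors in the membrane of the endoplasmic reticulum. SCAP carries them to the Golgi for cleavage when sterols are scarce, and the INSIG proteins hold SCAP back when sterols are plentiful. SREBP-2 acts mainly on sterol genes and SREBP-1 mainly on fatty acid genes. Dividing cells need both products for new membranes, and nerve cells and glia need cholesterol for axons and myelin. In human and mouse liver cells, AHR is known to lower transcripts of cholesterol synthesis genes.

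The promoters of the genes of both SREBP factors and of both INSIG anchors are shown with the letters of sites known from sterol-regulated promoters. Windows run from 250 bases before to 50 bases after the transcription start (RefSeq, GRCh38.p14), each printed 5′ to 3′ on the strand of its gene. Capitals mark TCACNCCAC (a form of the sterol regulatory element), CCAAT (the NF-Y box), GGGCGG (the Sp1 box) and CACGTG (the E-box), searched on both strands, and boxes that overlap run together. SREBF2 lies at chr22:41832855-41833154 on the plus strand, SREBF1 at chr17:17836937-17837236 on the minus strand, INSIG1 at chr7:155297628-155297927 on the plus strand and INSIG2, in the first of its windows, at chr2:118088221-118088520 on the plus strand. They were chosen after their values had been seen, SREBF2 because it alone among the members holds the sterol element letters, and SREBF1, INSIG1 and INSIG2 because their levels differed between the hairpins in both lines.
SREBF2: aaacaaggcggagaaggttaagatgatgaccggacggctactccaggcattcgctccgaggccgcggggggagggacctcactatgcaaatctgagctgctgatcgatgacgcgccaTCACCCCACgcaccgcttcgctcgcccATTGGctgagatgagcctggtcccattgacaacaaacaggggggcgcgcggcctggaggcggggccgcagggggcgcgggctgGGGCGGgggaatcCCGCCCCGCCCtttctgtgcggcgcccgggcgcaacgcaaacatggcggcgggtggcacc
SREBF1: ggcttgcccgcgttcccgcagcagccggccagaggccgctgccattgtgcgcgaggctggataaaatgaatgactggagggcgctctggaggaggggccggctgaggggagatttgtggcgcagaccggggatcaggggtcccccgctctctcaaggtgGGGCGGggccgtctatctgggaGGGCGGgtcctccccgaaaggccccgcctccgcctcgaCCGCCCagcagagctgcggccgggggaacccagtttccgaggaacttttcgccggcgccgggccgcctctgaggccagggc
INSIG1: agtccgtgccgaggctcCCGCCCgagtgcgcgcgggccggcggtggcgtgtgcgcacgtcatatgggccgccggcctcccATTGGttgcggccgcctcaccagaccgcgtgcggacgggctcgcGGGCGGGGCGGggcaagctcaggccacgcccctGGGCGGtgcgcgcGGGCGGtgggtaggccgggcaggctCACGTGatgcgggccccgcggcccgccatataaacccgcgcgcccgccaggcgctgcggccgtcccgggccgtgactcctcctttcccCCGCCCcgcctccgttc
INSIG2: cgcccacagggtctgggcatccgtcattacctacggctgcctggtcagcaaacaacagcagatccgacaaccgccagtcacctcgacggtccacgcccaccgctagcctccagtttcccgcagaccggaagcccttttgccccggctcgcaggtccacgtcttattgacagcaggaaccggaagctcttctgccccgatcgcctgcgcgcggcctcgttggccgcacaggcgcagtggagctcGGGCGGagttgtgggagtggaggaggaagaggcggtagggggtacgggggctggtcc
Of the 35 members, 31 had a window in the RefSeq table, and ACAT2, FDFT1, SQLE and FASN did not. The sterol element letters stood in 1 of the 31, SREBF2, at position −133 from the start, which is 3.23% against 1.39% of all 27305 genes with a window. CCAAT stood in 74.2% of the members against 39.7% of all genes, and GGGCGG in 96.8% against 48.3%. CACGTG stood in 12.9% against 8.77%, namely in LSS, SC5D, INSIG1 and SCAP. A match of letters is a description and not a binding site.

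Most of the 35 genes were lower with either hairpin in either line. With shAhR-1 in BE2C 22 members fell, where 27.1% of all genes did, and 2 rose, where 25.2% of all genes did. With shAhR-2 in BE2C 28 fell against 37.2% of all genes, and 3 rose against 38.0%. In Kelly libraries labelled shAhR-1, 26 fell against 31.0% of all genes and 4 rose against 29.6%. In Kelly with shAhR-2, 29 fell against 38.2% of all genes and 1 rose against 37.2%. The falls thus made up 62.9%, 80.0%, 74.3% and 82.9% of the members in these 4 comparisons. The median log2 fold change of the members was −0.23 and −0.62 in BE2C with shAhR-1 and shAhR-2, where that of all genes was 0.008 and 0.035. It was −0.31 in Kelly libraries labelled shAhR-1 and −0.74 in Kelly with shAhR-2, where that of all genes was 0.003 and −0.006.

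With both hairpins 19 members fell in BE2C, against 17.4% of all genes, and 23 fell in Kelly, against 14.3%. None rose with both, against 14.6% of all genes in BE2C and 12.9% in Kelly. In all 4 comparisons 16 members, or 45.7%, fell and none rose, where 8.88% of the 14680 genes tested in both lines fell and 6.34% rose. Those 16 were ACAT2, HMGCS1, MVD and IDI1 of the mevalonate pathway, FDPS, FDFT1, SQLE and LSS of the steps to lanosterol, MSMO1, HSD17B7, EBP and DHCR7 of the steps to cholesterol, SREBF2, and ACLY, SCD and FADS2 of fatty acid synthesis. Without replicate 1 of BE2C with shAhR-2 they numbered 17. With shAhR-1 in both lines 19 members fell against 19.2% of all genes, and STARD4 alone rose, where 16.1% of all genes did. With shAhR-2 in both lines 27 fell against 28.0%, and INSIG2 alone rose, where 25.0% did.

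**Figure D1:**
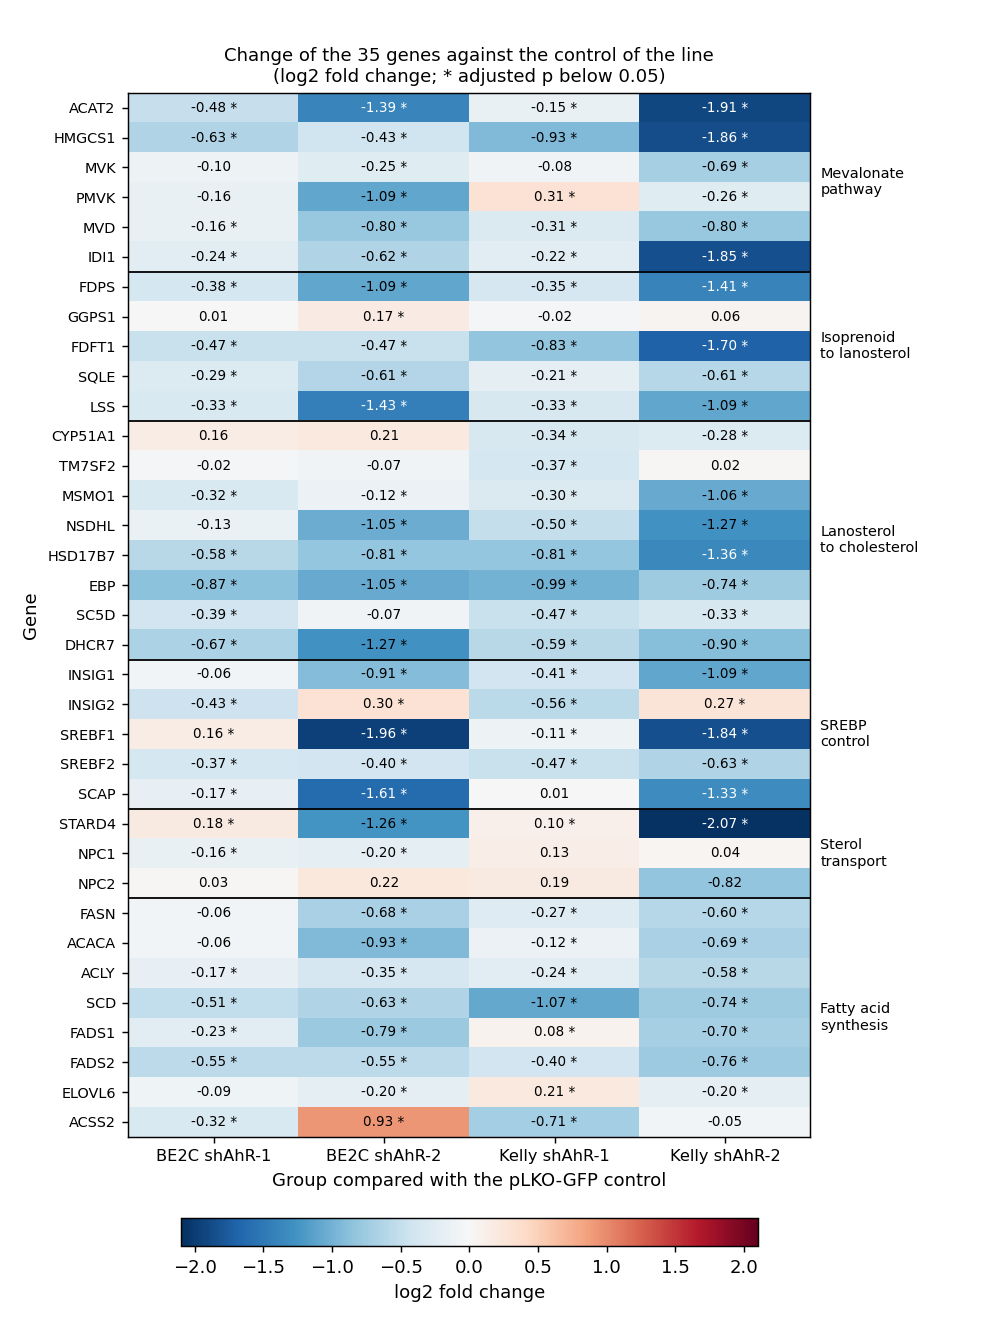
Log2 fold change of each of the 35 genes (rows, by role) against the pLKO-GFP control in the 4 comparisons (columns). Blue is lower and red is higher than control, and an asterisk marks an adjusted p below 0.05. Blue fills most rows in all 4 columns, and the darkest cells, such as SREBF1 at −1.96 in BE2C and STARD4 at −2.07 in Kelly, are in the shAhR-2 columns.

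All 6 genes of the mevalonate pathway fell in Kelly with shAhR-2, with a median of −1.32, the lowest of the 6 groups of members there. All 6 also fell in BE2C with shAhR-2, with a median of −0.71, and 4 of 6 fell with shAhR-1 in each line. Of all genes, 37.2% fell with shAhR-2 in BE2C and 38.2% in Kelly. With shAhR-1, 27.1% of all genes fell in BE2C and 31.0% in the Kelly libraries so labelled. HMGCS1 makes HMG-CoA, the committed precursor of mevalonate. In BE2C HMGCS1 had 88.3, 93.5 and 87.4 CPM with shAhR-1 and 105, 101 and 101 CPM with shAhR-2, against 137, 135 and 143 CPM in control. In Kelly HMGCS1 had 98.02, 102 and 106 CPM in the libraries labelled shAhR-1 and 55.3, 54.3 and 52.3 CPM with shAhR-2, against 193, 199 and 194 CPM in control. Every library with a hairpin lay below every control of its line, and the lowest level was in Kelly with shAhR-2, at 0.275 times control. HMGCS1 had log2 fold changes of −0.63 ± 0.038 with shAhR-1 and −0.43 ± 0.037 with shAhR-2 in BE2C, and −0.93 ± 0.034 in the libraries labelled shAhR-1 and −1.86 ± 0.035 with shAhR-2 in Kelly, with adjusted p at or below 3.44e-12.

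IDI1 turns isopentenyl diphosphate into its reactive isomer. IDI1 had 91.9, 96.5 and 92.5 CPM with shAhR-1 and 72.5, 70.03 and 70.98 CPM with shAhR-2, against 112, 112 and 108 CPM in control in BE2C. It had 64.96, 67.9 and 69.6 CPM in the libraries labelled shAhR-1 and 21.9, 20.5 and 23.4 CPM with shAhR-2, against 80.9, 77.9 and 77.2 CPM in control in Kelly. No library with a hairpin reached a control, and Kelly cells with shAhR-2 again held the least. On the log2 scale IDI1 changed by −0.24 ± 0.038 with shAhR-1 and −0.62 ± 0.038 with shAhR-2 in BE2C, and −0.22 ± 0.044 in the libraries labelled shAhR-1 and −1.85 ± 0.048 with shAhR-2 in Kelly, with adjusted p at or below 2.61e-05. Exons of IDI2-AS1 on the opposite strand cover 14.8% of those of IDI1. IDI2-AS1 fell in Kelly with shAhR-2 (−1.53 ± 0.18) at a mean of 126.1 counts per library, where IDI1 had 3033, and its part in the IDI1 values was not tested.

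MVD makes isopentenyl diphosphate. MVD had 30.5, 32.3 and 28.8 CPM with shAhR-1 and 21.3, 18.7 and 18.4 CPM with shAhR-2, against 33.1, 36.6 and 32.6 CPM in control in BE2C. In Kelly MVD had 29.5, 31.7 and 33.5 CPM in the libraries labelled shAhR-1 and 21.99, 22.8 and 23.4 CPM with shAhR-2, against 39.4, 37.9 and 40.7 CPM in control. All libraries with a hairpin lay under all controls, with shAhR-2 the lowest. MVD fell by nearly the same amount in both lines with shAhR-2 (−0.80 ± 0.069 in BE2C and −0.80 ± 0.057 in Kelly). Its changes with shAhR-1 were closer to 0 (−0.16 ± 0.067 in BE2C, adjusted p 0.0411, and −0.31 ± 0.056 in Kelly libraries labelled shAhR-1, adjusted p 4.04e-06). The BE2C call with shAhR-1 was lost without BE2C control replicate 2 or BE2C shAhR-1 replicate 1 or 3 (−0.17 to −0.10, adjusted p 0.0677 to 0.239), and with a filter at a mean CPM of 1 (−0.15, adjusted p 0.0531).

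ACAT2, the cytosolic thiolase that opens the pathway, had 57.1, 61.4 and 59.97 CPM with shAhR-1 and 31.1, 31.3 and 31.5 CPM with shAhR-2, against 84.8, 80.8 and 82.5 CPM in control in BE2C. In Kelly ACAT2 had 42.5, 45.01 and 45.4 CPM in the libraries labelled shAhR-1 and 14.3, 12.7 and 12.6 CPM with shAhR-2, against 50.4, 48.2 and 49.4 CPM in control. The groups did not overlap within either line. ACAT2 had log2 fold changes of −0.48 ± 0.044 with shAhR-1 and −1.39 ± 0.046 with shAhR-2 in BE2C, and −0.15 ± 0.052 in the libraries labelled shAhR-1 and −1.91 ± 0.058 with shAhR-2 in Kelly, with adjusted p at or below 0.0112. In Kelly libraries labelled shAhR-1 the call was lost without Kelly shAhR-1 replicate 1 (−0.12, adjusted p 0.0678). Exons of genes on the opposite strand cover 52.3% of those of ACAT2, and the sources used here do not tell whether the counting used strand. Among these partners SOD2 had a mean of 4533 and TCP1 of 21460 counts per library, where ACAT2 had 1904. SOD2 changed by −1.07 ± 0.048 and TCP1 by −0.84 ± 0.027 with shAhR-2 in BE2C, and SOD2 by 0.24 ± 0.035 and TCP1 by −0.19 ± 0.027 with shAhR-2 in Kelly. With shAhR-1 in BE2C SOD2 changed by −0.22 ± 0.046 and TCP1 by −0.071 ± 0.027. In Kelly libraries labelled shAhR-1 SOD2 changed by −0.16 ± 0.036 and TCP1 by 0.23 ± 0.027. Their part in the ACAT2 values was not tested.

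The 2 kinases of mevalonate did not fall in all 4 comparisons. MVK, the first kinase, fell with shAhR-2 (−0.25 ± 0.062 in BE2C and −0.69 ± 0.078 in Kelly) and did not pass the test with shAhR-1 in BE2C (−0.10 ± 0.062) or in Kelly libraries labelled shAhR-1 (−0.076 ± 0.076). PMVK, the second kinase, had 30.5, 31.6 and 31.5 CPM in the libraries labelled shAhR-1 and 21.4, 20.6 and 21.5 CPM with shAhR-2, against 25.7, 24.6 and 25.4 CPM in control in Kelly. Its libraries labelled shAhR-1 were the highest and those with shAhR-2 the lowest, with the controls between them. It rose in the first (0.31 ± 0.058, adjusted p 7.69e-06) and fell with shAhR-2 (−0.26 ± 0.060, adjusted p 0.000129). With shAhR-2 in BE2C it fell by 1.09 on the log2 scale (SE 0.076, adjusted p 1.07e-14). With shAhR-1 in BE2C its change of −0.16 ± 0.072 did not pass the test (adjusted p 0.0642), and it passed without BE2C control replicate 2 or BE2C shAhR-2 replicate 1 (−0.22 to −0.17, adjusted p 0.017 to 0.0414), and with counts halved (−0.16, adjusted p 0.0497).

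Of the 5 genes between isoprenoids and lanosterol, the 4 on the direct route to cholesterol fell in all 4 comparisons, and GGPS1, which sits on a side branch, did not fall in any. Of all genes tested in both lines, 8.88% fell in all 4. FDFT1, squalene synthase, commits farnesyl diphosphate to sterols. In BE2C FDFT1 had 50.2, 49.6 and 52.3 CPM with shAhR-1 and 51.9, 46.5 and 51.6 CPM with shAhR-2, against 66.8, 71.7 and 71.2 CPM in control. In Kelly FDFT1 had 37.9, 35.5 and 39.99 CPM in the libraries labelled shAhR-1 and 19.8, 22.7 and 20.3 CPM with shAhR-2, against 68.5, 65.2 and 68.9 CPM in control. The hairpins gave overlapping levels in BE2C, both under control, whereas in Kelly shAhR-2 lay well under the libraries labelled shAhR-1. On the log2 scale FDFT1 changed by −0.47 ± 0.049 with shAhR-1 and −0.47 ± 0.049 with shAhR-2 in BE2C, and −0.83 ± 0.051 in the libraries labelled shAhR-1 and −1.70 ± 0.054 with shAhR-2 in Kelly, with adjusted p at or below 8.65e-10.

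SQLE, squalene epoxidase, is a rate-limiting enzyme of the later pathway. SQLE had 189, 183 and 195 CPM with shAhR-1 and 146, 149.8 and 151 CPM with shAhR-2, against 229.5, 231 and 229 CPM in control in BE2C. In Kelly it had 179, 183 and 184 CPM in the libraries labelled shAhR-1 and 139, 139.7 and 139 CPM with shAhR-2, against 212, 206 and 215 CPM in control. The order was the same in both lines, with shAhR-2 lowest, shAhR-1 between and control highest, and no group overlapped another. SQLE had log2 fold changes of −0.29 ± 0.032 with shAhR-1 and −0.61 ± 0.032 with shAhR-2 in BE2C, and −0.21 ± 0.030 in the libraries labelled shAhR-1 and −0.61 ± 0.030 with shAhR-2 in Kelly, with adjusted p at or below 3.53e-08.

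LSS closes the ring of lanosterol. LSS had 33.96, 31.1 and 35.5 CPM with shAhR-1 and 15.1, 15.5 and 15.7 CPM with shAhR-2, against 44.00, 43.5 and 38.4 CPM in control in BE2C. In Kelly LSS had 42.8, 45.5 and 40.5 CPM in the libraries labelled shAhR-1 and 25.9, 24.6 and 26.2 CPM with shAhR-2, against 55.4, 52.1 and 55.04 CPM in control. All libraries with a hairpin lay under all controls, and those with shAhR-2 were the lowest in both lines. It was 0.371 times its control in BE2C with shAhR-2 (−1.43 ± 0.067) and 0.469 times control in Kelly with shAhR-2 (−1.09 ± 0.052). With shAhR-1 its change was −0.33 ± 0.063 in BE2C and −0.33 ± 0.050 in Kelly libraries labelled shAhR-1. Adjusted p was at or below 4.95e-05 for these 4 changes.

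FDPS, farnesyl diphosphate synthase, had 71.7, 69.2 and 67.6 CPM with shAhR-1 and 39.9, 41.4 and 44.1 CPM with shAhR-2, against 88.4, 92.7 and 88.9 CPM in control in BE2C. In Kelly FDPS had 61.8, 57.7 and 58.5 CPM in the libraries labelled shAhR-1 and 28.3, 29.8 and 28.2 CPM with shAhR-2, against 75.7, 76.5 and 76.02 CPM in control. No group overlapped another, and shAhR-2 was again the lowest. FDPS changed by −0.38 ± 0.045 with shAhR-1 and −1.09 ± 0.046 with shAhR-2 in BE2C, and −0.35 ± 0.043 in the libraries labelled shAhR-1 and −1.41 ± 0.045 with shAhR-2 in Kelly, with adjusted p at or below 1.06e-08. Exons of RUSC1-AS1 on the opposite strand cover 18.6% of those of FDPS, and RUSC1-AS1, with a mean of 438.2 counts per library where FDPS had 2493, fell in Kelly with shAhR-2 (−0.45 ± 0.087). Its part in the FDPS values was not tested.

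GGPS1 makes geranylgeranyl diphosphate, used to anchor small GTPases to membranes. It had 32.4, 31.2 and 30.96 CPM with shAhR-1 and 33.7, 34.2 and 36.7 CPM with shAhR-2, against 29.8, 32.6 and 31.4 CPM in control in BE2C and so lay slightly higher with shAhR-2 (0.17 ± 0.058, adjusted p 0.0104). That call was lost without BE2C control replicate 1 or BE2C shAhR-2 replicate 3 (0.13, adjusted p 0.0792 to 0.0805). In Kelly its changes were −0.019 ± 0.075 in the libraries labelled shAhR-1 and 0.057 ± 0.074 with shAhR-2, and neither passed the test. TBCE, whose exons cover 37.3% of those of GGPS1 on the same strand, fell with shAhR-2 (−1.06 ± 0.10 in BE2C and −1.31 ± 0.10 in Kelly).

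The steps from lanosterol to cholesterol fell in part. Of 8 genes, 5 fell with each hairpin in BE2C, where 27.1% of all genes did with shAhR-1 and 37.2% with shAhR-2. All 8 fell in Kelly libraries labelled shAhR-1, where 31.0% of all genes did, and 7 fell in Kelly with shAhR-2, where 38.2% did. EBP, the sterol isomerase, fell with both hairpins in both lines. EBP had 13.1, 14.8 and 12.99 CPM with shAhR-1 and 11.7, 12.4 and 11.4 CPM with shAhR-2, against 25.2, 24.3 and 24.8 CPM in control in BE2C. In Kelly EBP had 9.48, 10.6 and 8.71 CPM in the libraries labelled shAhR-1 and 12.7, 11.04 and 10.7 CPM with shAhR-2, against 22.5, 17.2 and 17.4 CPM in control. All libraries with a hairpin lay under all controls, and the hairpins lay close to each other. On the log2 scale EBP changed by −0.87 ± 0.077 with shAhR-1 and −1.05 ± 0.077 with shAhR-2 in BE2C, and −0.99 ± 0.094 in the libraries labelled shAhR-1 and −0.74 ± 0.091 with shAhR-2 in Kelly, with adjusted p at or below 3.22e-10.

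DHCR7 catalyses the last step of the route through lathosterol. DHCR7 had 48.5, 49.4 and 46.9 CPM with shAhR-1 and 31.7, 31.4 and 31.3 CPM with shAhR-2, against 75.2, 80.3 and 74.1 CPM in control in BE2C. It had 48.1, 49.2 and 46.2 CPM in the libraries labelled shAhR-1 and 39.3, 40.2 and 37.2 CPM with shAhR-2, against 75.3, 70.03 and 71.05 CPM in control in Kelly. Both hairpins were under control in both lines, with shAhR-2 the lower. DHCR7 had log2 fold changes of −0.67 ± 0.047 with shAhR-1 and −1.27 ± 0.048 with shAhR-2 in BE2C, and −0.59 ± 0.045 in the libraries labelled shAhR-1 and −0.90 ± 0.045 with shAhR-2 in Kelly, with adjusted p at or below 6.84e-14.

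HSD17B7 acts in the removal of the methyl groups of lanosterol. HSD17B7 had 9.03, 10.8 and 10.7 CPM with shAhR-1 and 7.74, 8.88 and 9.09 CPM with shAhR-2, against 14.2, 16.3 and 14.96 CPM in control in BE2C. In Kelly HSD17B7 had 7.84, 7.99 and 7.61 CPM in the libraries labelled shAhR-1 and 5.72, 4.93 and 5.54 CPM with shAhR-2, against 14.5, 12.5 and 14.3 CPM in control. All libraries with a hairpin lay under all controls, and the hairpins overlapped in BE2C but not in Kelly. HSD17B7 changed by −0.58 ± 0.098 with shAhR-1 and −0.81 ± 0.098 with shAhR-2 in BE2C, and −0.81 ± 0.097 in the libraries labelled shAhR-1 and −1.36 ± 0.10 with shAhR-2 in Kelly, with adjusted p at or below 5.83e-06. Its pseudogene HSD17B7P2 had 7.9% as many counts. NSDHL, a dehydrogenase of the same step, fell with shAhR-2 (−1.05 ± 0.082 in BE2C and −1.27 ± 0.079 in Kelly) and in Kelly libraries labelled shAhR-1 (−0.50 ± 0.076). Its change with shAhR-1 in BE2C did not pass the test (−0.13 ± 0.079, adjusted p 0.159).

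MSMO1, an oxidase in the removal of methyl groups, differed between the lines. In BE2C MSMO1 had 54.1, 59.4 and 58.7 CPM with shAhR-1 and 67.7, 63.7 and 63.5 CPM with shAhR-2, against 74.5, 66.9 and 72.8 CPM in control. In Kelly it had 56.5, 55.8 and 56.4 CPM in the libraries labelled shAhR-1 and 32.2, 33.2 and 34.5 CPM with shAhR-2, against 70.6, 67.9 and 69.3 CPM in control. In BE2C 1 library with shAhR-2 lay above the lowest control, while in Kelly all 3 lay far below. Its change with shAhR-2 was −0.12 ± 0.047 in BE2C (adjusted p 0.0184) and −1.06 ± 0.045 in Kelly (adjusted p 2.11e-27). The BE2C call with shAhR-2 was lost without BE2C control replicate 1 or 3 or BE2C shAhR-2 replicate 2 or 3 (−0.12 to −0.10, adjusted p 0.0509 to 0.0812), and with a filter at a mean CPM of 1 (−0.068, adjusted p 0.187). With shAhR-1 the change was −0.32 ± 0.048 in BE2C and −0.30 ± 0.043 in the Kelly libraries so labelled.

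SC5D, the sterol desaturase before DHCR7, fell with shAhR-1 in BE2C (−0.39 ± 0.035) and in Kelly libraries labelled shAhR-1 (−0.47 ± 0.049). With shAhR-2 it fell in Kelly (−0.33 ± 0.048) and was at −0.067 ± 0.035 in BE2C, where it did not pass the test (adjusted p 0.0802). It passed there without BE2C control replicate 1 or BE2C shAhR-1 replicate 1, 2 or 3 (−0.11 to −0.083, adjusted p 0.00489 to 0.0367), and with no filter on low counts or without mitochondrial genes (−0.081 to −0.074, adjusted p 0.0435 to 0.0483). CYP51A1 and TM7SF2, which act right after lanosterol, had the fewest calls of this group. CYP51A1 had 4.75 to 6.64 CPM over the 9 BE2C libraries, where no change passed the test. In Kelly it had 5.20, 5.73 and 6.98 CPM in the libraries labelled shAhR-1 and 6.36, 6.28 and 6.19 CPM with shAhR-2, against 8.24, 8.40 and 6.06 CPM in control. Its Kelly groups overlapped, although it was called lower in the libraries labelled shAhR-1 (−0.34 ± 0.12, adjusted p 0.017) and with shAhR-2 (−0.28 ± 0.12, adjusted p 0.0342). The first of these calls was lost without Kelly control replicate 1 or 2 or Kelly shAhR-1 replicate 1 or 2 (−0.30 to −0.25, adjusted p 0.0561 to 0.113), and the second was lost without Kelly control replicate 1 or 2 or Kelly shAhR-2 replicate 1, 2 or 3 (−0.29 to −0.20, adjusted p 0.0564 to 0.163), and with a filter at a mean CPM of 1 or by DESeq2 (−0.26 to −0.25, adjusted p 0.0626 to 0.0837). TM7SF2 fell in Kelly libraries labelled shAhR-1 (−0.37 ± 0.092), and its 3 other changes, of −0.017 ± 0.19 and −0.066 ± 0.19 in BE2C and 0.019 ± 0.089 in Kelly with shAhR-2, did not pass the test.

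**Figure D2:**
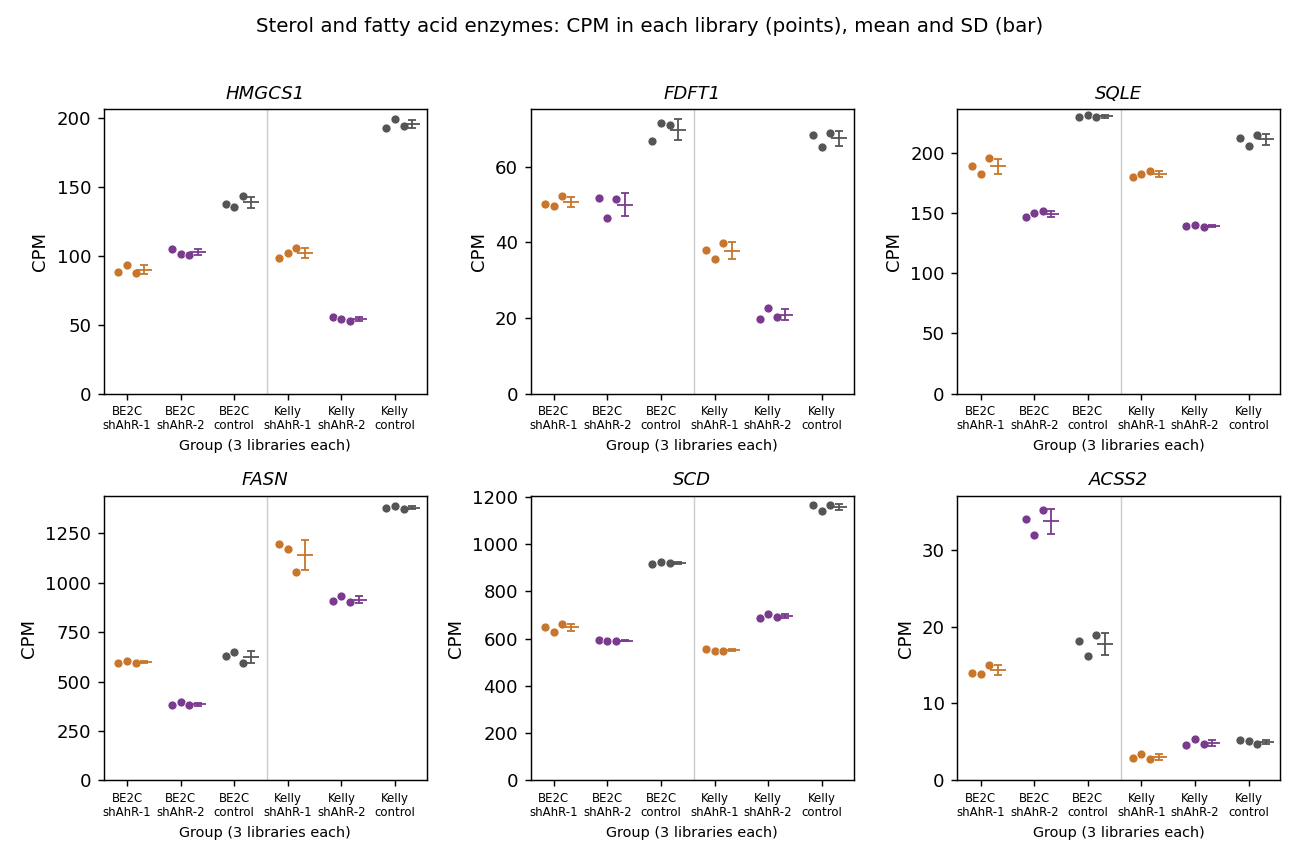
CPM of 6 enzyme genes in each of the 18 libraries (points), with the mean and SD of the 3 libraries of a group (bars). HMGCS1 and FDFT1 are lowest in Kelly with shAhR-2, SQLE has the same order of groups in both lines, and ACSS2 is highest in BE2C with shAhR-2.

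Among the genes that control the SREBP proteins, SREBF2 fell in all 4 comparisons, whereas SREBF1, SCAP and INSIG1 fell with shAhR-2 in both lines and INSIG2 changed in opposite directions with the hairpins. SREBF2 encodes SREBP-2, the main factor of sterol genes. SREBF2 had 182, 178 and 185 CPM with shAhR-1 and 173, 177 and 178 CPM with shAhR-2, against 235, 239 and 228 CPM in control in BE2C. In Kelly SREBF2 had 289.7, 296 and 285 CPM in the libraries labelled shAhR-1 and 262, 268 and 253 CPM with shAhR-2, against 407, 389 and 411 CPM in control. All libraries with a hairpin lay under all controls, and in BE2C the levels with the hairpins overlapped. On the log2 scale SREBF2 changed by −0.37 ± 0.032 with shAhR-1 and −0.40 ± 0.032 with shAhR-2 in BE2C, and −0.47 ± 0.029 in the libraries labelled shAhR-1 and −0.63 ± 0.029 with shAhR-2 in Kelly, with adjusted p at or below 8.77e-12.

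SREBF1 encodes SREBP-1, the main factor of fatty acid genes. In BE2C SREBF1 had 43.5, 44.2 and 44.2 CPM with shAhR-1 and 9.27, 10.8 and 10.02 CPM with shAhR-2, against 39.5, 39.5 and 38.95 CPM in control. In Kelly SREBF1 had 84.6, 86.4 and 79.5 CPM in the libraries labelled shAhR-1 and 25.00, 26.7 and 23.9 CPM with shAhR-2, against 90.8, 88.3 and 91.3 CPM in control. With shAhR-2 it was 0.257 times control in BE2C and 0.279 times control in Kelly, far outside the spread of the other groups. The log2 fold change with shAhR-2 was −1.96 ± 0.065 in BE2C (adjusted p 1.64e-23) and −1.84 ± 0.045 in Kelly (adjusted p 1.28e-37). With shAhR-1 it rose in BE2C (0.16 ± 0.057, adjusted p 0.0201) and fell in Kelly libraries labelled shAhR-1 (−0.11 ± 0.041, adjusted p 0.0224). The BE2C call with shAhR-1 was lost without BE2C control replicate 3 or BE2C shAhR-1 replicate 1, 2 or 3 (0.15, adjusted p 0.0588 to 0.0738). The Kelly call was lost without Kelly control replicate 1 or 3 or Kelly shAhR-1 replicate 3 (−0.10 to −0.071, adjusted p 0.0567 to 0.171).

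SCAP encodes the escort of both factors. SCAP had 54.4, 53.2 and 54.2 CPM with shAhR-1 and 19.8, 20.5 and 18.8 CPM with shAhR-2, against 62.3, 60.8 and 58.8 CPM in control in BE2C. It had 123, 123 and 123 CPM in the libraries labelled shAhR-1 and 49.1, 49.1 and 49.2 CPM with shAhR-2, against 124, 122 and 122 CPM in control in Kelly. Cells with shAhR-2 held well under the level of any other group of their line, while Kelly libraries labelled shAhR-1 matched the controls closely. SCAP had log2 fold changes of −0.17 ± 0.049 with shAhR-1 and −1.61 ± 0.053 with shAhR-2 in BE2C, and 0.012 ± 0.033 in the libraries labelled shAhR-1 and −1.33 ± 0.035 with shAhR-2 in Kelly. Adjusted p was 0.00374, 1.34e-23, 0.772 and 4.44e-36 in the same order, so the third did not pass the test.

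INSIG1 encodes the first anchor of SCAP and is itself a target of the SREBP proteins. In BE2C INSIG1 had 47.8, 51.2 and 48.1 CPM with shAhR-1 and 25.00, 28.8 and 26.7 CPM with shAhR-2, against 48.2, 53.7 and 51.1 CPM in control. In Kelly INSIG1 had 52.9, 58.7 and 52.6 CPM in the libraries labelled shAhR-1 and 34.3, 34.4 and 34.5 CPM with shAhR-2, against 76.5, 71.7 and 69.9 CPM in control. Levels with shAhR-2 were the lowest in both lines, and in BE2C shAhR-1 and control overlapped. On the log2 scale INSIG1 changed by −0.060 ± 0.056 with shAhR-1 and −0.91 ± 0.058 with shAhR-2 in BE2C, and −0.41 ± 0.046 in the libraries labelled shAhR-1 and −1.09 ± 0.047 with shAhR-2 in Kelly. The first did not pass the test (adjusted p 0.388), and the adjusted p of the others was at or below 4.84e-11.

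INSIG2 encodes the second anchor. INSIG2 had 9.40, 8.20 and 8.43 CPM with shAhR-1 and 13.6, 14.1 and 15.1 CPM with shAhR-2, against 12.97, 11.2 and 10.8 CPM in control in BE2C. In Kelly INSIG2 had 6.72, 6.20 and 7.06 CPM in the libraries labelled shAhR-1 and 11.9, 11.6 and 12.3 CPM with shAhR-2, against 9.88, 10.6 and 9.09 CPM in control. In each line the libraries with shAhR-2 were the highest and those with shAhR-1 the lowest, and no group overlapped another. INSIG2 rose with shAhR-2 (0.30 ± 0.094 in BE2C, adjusted p 0.00421, and 0.27 ± 0.093 in Kelly, adjusted p 0.00757). It fell with shAhR-1 in BE2C (−0.43 ± 0.098, adjusted p 0.000427) and in Kelly libraries labelled shAhR-1 (−0.56 ± 0.099, adjusted p 2.68e-06). The Kelly call with shAhR-2 was lost without Kelly control replicate 3 (0.21, adjusted p 0.0601).

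**Figure D3:**
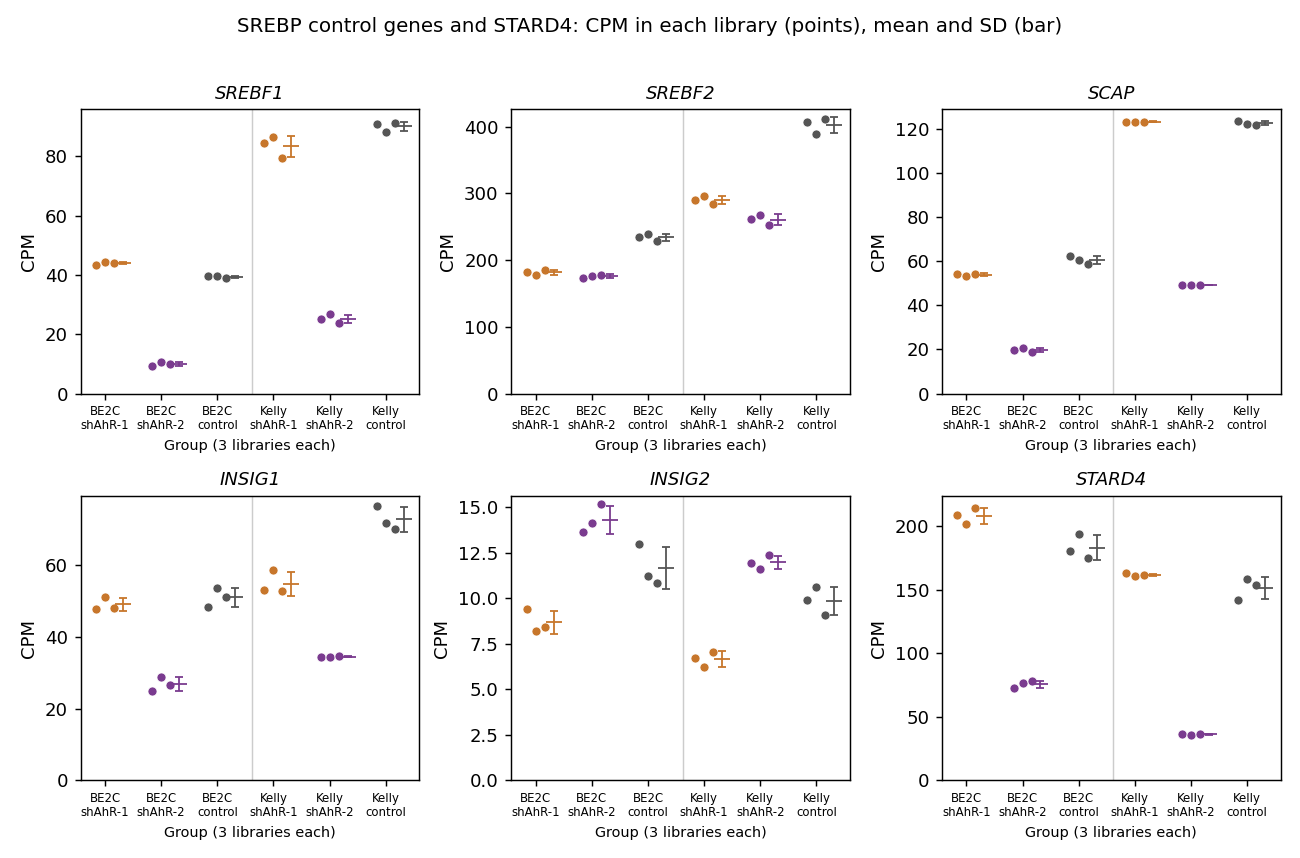
CPM of the 5 SREBP control genes and of STARD4 in each of the 18 libraries (points), with the mean and SD of the 3 libraries of a group (bars). SREBF1, SCAP, INSIG1 and STARD4 are lowest with shAhR-2 in both lines, INSIG2 is highest with shAhR-2, and SREBF2 lies under control with either hairpin.

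Of the 3 genes of sterol transport, STARD4 had the widest change of all 35 members. NPC1 changed little, and NPC2 was too sparse for a precise estimate. STARD4 is a soluble carrier of cholesterol between membranes and a known target of SREBP-2. In BE2C STARD4 had 209, 202 and 214 CPM with shAhR-1 and 72.7, 76.5 and 78.1 CPM with shAhR-2, against 180.3, 194 and 175 CPM in control. In Kelly STARD4 had 163, 161 and 161 CPM in the libraries labelled shAhR-1 and 36.7, 35.7 and 36.2 CPM with shAhR-2, against 142, 159 and 154 CPM in control. With shAhR-2 it was 0.417 times control in BE2C and 0.238 times control in Kelly, while with shAhR-1 all libraries lay above all controls of their line. STARD4 had log2 fold changes of 0.18 ± 0.038 with shAhR-1 and −1.26 ± 0.040 with shAhR-2 in BE2C, and 0.10 ± 0.035 in the libraries labelled shAhR-1 and −2.07 ± 0.039 with shAhR-2 in Kelly, with adjusted p at or below 0.0111. In Kelly libraries labelled shAhR-1 the call was lost without Kelly control replicate 1 (0.052, adjusted p 0.224).

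NPC1 and NPC2 bring cholesterol out of lysosomes. NPC1 had 24.7, 23.4 and 24.3 CPM with shAhR-1 and 23.1, 23.8 and 23.2 CPM with shAhR-2, against 25.1, 27.9 and 27.8 CPM in control in BE2C. In Kelly NPC1 had 18.5, 17.3 and 16.5 CPM in the libraries labelled shAhR-1 and 17.3, 15.9 and 16.03 CPM with shAhR-2, against 16.2, 15.96 and 15.5 CPM in control. It was slightly lower than control in BE2C with shAhR-1 (−0.16 ± 0.065, adjusted p 0.0376) and with shAhR-2 (−0.20 ± 0.065, adjusted p 0.00752), and passed the test in neither Kelly comparison (0.13 ± 0.074 and 0.038 ± 0.074). The first of these calls was lost without BE2C control replicate 2 or 3 or BE2C shAhR-1 replicate 2 or 3 (−0.18 to −0.13, adjusted p 0.0545 to 0.131), and with no filter on low counts (−0.17, adjusted p 0.0603). NPC2 was hardly detected, at 0.171 to 1.62 CPM over all libraries, and none of its changes against control passed the test, the largest being −0.82 ± 0.40 in Kelly with shAhR-2 (adjusted p 0.0581). That change passed without Kelly shAhR-2 replicate 2 or 3 (−1.09 to −1.02, adjusted p 0.0317 to 0.042), and with no filter on low counts or with a replicate block (−0.89 to −0.83, adjusted p 0.0496 to 0.0499).

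Of the 8 genes of fatty acid synthesis, 5 fell with shAhR-1 in BE2C, 7 with shAhR-2 in BE2C, 6 in Kelly libraries labelled shAhR-1 and 7 in Kelly with shAhR-2. In the same order, 27.1%, 37.2%, 31.0% and 38.2% of all genes fell. SCD, ACLY and FADS2 fell in all 4 comparisons, and FASN, ACACA and FADS1 fell with shAhR-2 in both lines. SCD adds the double bond that makes oleic acid. SCD had 649, 629 and 662 CPM with shAhR-1 and 594, 590.4 and 589 CPM with shAhR-2, against 914, 923 and 922 CPM in control in BE2C. In Kelly SCD had 555, 549 and 547 CPM in the libraries labelled shAhR-1 and 686, 703 and 692 CPM with shAhR-2, against 1166, 1141 and 1163 CPM in control. Every library with a hairpin lay far under control, and in Kelly the libraries labelled shAhR-1 were lower than those with shAhR-2, the reverse of most members. On the log2 scale SCD changed by −0.51 ± 0.026 with shAhR-1 and −0.63 ± 0.026 with shAhR-2 in BE2C, and −1.07 ± 0.025 in the libraries labelled shAhR-1 and −0.74 ± 0.025 with shAhR-2 in Kelly, with adjusted p at or below 2.37e-17.

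FASN builds palmitate. In BE2C FASN had 596, 603 and 593 CPM with shAhR-1 and 379, 395 and 382 CPM with shAhR-2, against 628, 649.9 and 593 CPM in control. In Kelly FASN had 1195, 1172 and 1054 CPM in the libraries labelled shAhR-1 and 908, 934 and 901 CPM with shAhR-2, against 1380.4, 1387 and 1374 CPM in control. With shAhR-2 all libraries lay under all controls, whereas in BE2C shAhR-1 and control overlapped. The change with shAhR-2 was −0.68 ± 0.030 in BE2C and −0.60 ± 0.030 in Kelly (adjusted p 6.28e-20 and 1.81e-24). With shAhR-1 it was −0.064 ± 0.030 in BE2C, which did not pass the test (adjusted p 0.0733), and −0.27 ± 0.029 in Kelly libraries labelled shAhR-1 (adjusted p 1.98e-11). The BE2C change with shAhR-1 passed without BE2C control replicate 3 or BE2C shAhR-2 replicate 1 (−0.10 to −0.075, adjusted p 0.00874 to 0.0137), and with no filter on low counts, by DESeq2 or without mitochondrial genes (−0.069 to −0.068, adjusted p 0.0379 to 0.044).

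ACLY and ACSS2 supply acetyl-CoA, from citrate and from acetate. ACLY had 516, 522 and 519.6 CPM with shAhR-1 and 453, 457 and 450.3 CPM with shAhR-2, against 592, 579 and 579.6 CPM in control in BE2C. In Kelly ACLY had 546, 542 and 518 CPM in the libraries labelled shAhR-1 and 419.8, 424 and 435 CPM with shAhR-2, against 646, 637 and 623 CPM in control. Its order of groups was that of SQLE, with shAhR-2 the lowest in both lines. ACLY had log2 fold changes of −0.17 ± 0.026 with shAhR-1 and −0.35 ± 0.026 with shAhR-2 in BE2C, and −0.24 ± 0.027 in the libraries labelled shAhR-1 and −0.58 ± 0.027 with shAhR-2 in Kelly, with adjusted p at or below 1.22e-06.

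In BE2C ACSS2 had 13.99, 13.8 and 15.04 CPM with shAhR-1 and 34.00, 31.9 and 35.1 CPM with shAhR-2, against 18.2, 16.2 and 18.9 CPM in control. In Kelly ACSS2 had 2.96, 3.49 and 2.74 CPM in the libraries labelled shAhR-1 and 4.57, 5.37 and 4.69 CPM with shAhR-2, against 5.19, 5.17 and 4.74 CPM in control. It was 1.91 times control in BE2C with shAhR-2, where most members fell, and lay under control with shAhR-1 in both lines. It rose in BE2C with shAhR-2 (0.93 ± 0.071, adjusted p 1.09e-13) and fell with shAhR-1 in BE2C (−0.32 ± 0.076, adjusted p 0.00069) and in the Kelly libraries so labelled (−0.71 ± 0.14, adjusted p 2.61e-05). In Kelly with shAhR-2 its change of −0.052 ± 0.13 did not pass the test (adjusted p 0.733).

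FADS1 and FADS2 desaturate long-chain fatty acids, and ELOVL6 lengthens palmitate. FADS2 had 85.8, 80.6 and 79.3 CPM with shAhR-1 and 83.9, 80.1 and 80.5 CPM with shAhR-2, against 126, 114 and 120.2 CPM in control in BE2C. In Kelly FADS2 had 129.5, 128 and 129 CPM in the libraries labelled shAhR-1 and 105, 100.4 and 97.7 CPM with shAhR-2, against 176, 169 and 166 CPM in control. Every library with a hairpin lay under every control, and the hairpins overlapped in BE2C. FADS2 changed by −0.55 ± 0.042 with shAhR-1 and −0.55 ± 0.041 with shAhR-2 in BE2C, and −0.40 ± 0.033 in the libraries labelled shAhR-1 and −0.76 ± 0.033 with shAhR-2 in Kelly, with adjusted p at or below 3.08e-13. 

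FADS1 had 269, 273 and 279 CPM with shAhR-1 and 182, 184 and 186 CPM with shAhR-2, against 318, 323 and 318 CPM in control in BE2C. In Kelly FADS1 had 197, 199 and 191 CPM in the libraries labelled shAhR-1 and 116, 116 and 113 CPM with shAhR-2, against 189, 183 and 186 CPM in control. No group overlapped another within a line, and in Kelly the libraries labelled shAhR-1 were the highest. FADS1 fell with both hairpins in BE2C (−0.23 ± 0.029 for shAhR-1, −0.79 ± 0.030 for shAhR-2) and with shAhR-2 in Kelly (−0.70 ± 0.031), but was slightly higher in Kelly libraries labelled shAhR-1 (0.078 ± 0.030, adjusted p 0.0238). That last call was lost without Kelly control replicate 2 or 3 or Kelly shAhR-1 replicate 1 or 2 (0.065 to 0.075, adjusted p 0.0645 to 0.112), and with no filter on low counts (0.070, adjusted p 0.0839). ACACA, the carboxylase before FASN, fell with shAhR-2 (−0.93 ± 0.041 in BE2C and −0.69 ± 0.036 in Kelly) and changed less with shAhR-1 (−0.064 ± 0.040 in BE2C, which did not pass the test, and −0.12 ± 0.035 in the Kelly libraries so labelled, whose levels overlapped those of control). ELOVL6 fell with shAhR-2 (−0.20 ± 0.041 in BE2C and −0.20 ± 0.035 in Kelly) and rose in Kelly libraries labelled shAhR-1 (0.21 ± 0.035). With shAhR-1 in BE2C its change of −0.093 ± 0.041 did not pass the test (adjusted p 0.0566), and it passed without BE2C shAhR-1 replicate 1 or 3 or BE2C shAhR-2 replicate 1 (−0.14 to −0.10, adjusted p 0.0128 to 0.0472), and with RLE size factors, by DESeq2, with counts halved or without mitochondrial genes (−0.10 to −0.094, adjusted p 0.0455 to 0.0491).

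The hairpins were also set directly against each other. In BE2C 22 members were higher with shAhR-1 than with shAhR-2 and 6 were lower, where 35.9% of all genes were higher and 36.5% lower. In Kelly 26 were higher in the libraries labelled shAhR-1 than with shAhR-2 and 6 were lower, where 39.3% and 38.2% of all genes were. Gaps are given as log2 fold changes of shAhR-1 over shAhR-2. The widest in BE2C were those of SREBF1 (2.12 ± 0.064), STARD4 (1.44 ± 0.040) and SCAP (1.44 ± 0.053). In Kelly they were those of STARD4 (2.17 ± 0.039), ACAT2 (1.76 ± 0.059), SREBF1 (1.74 ± 0.045) and IDI1 (1.63 ± 0.049), and SCAP had 1.34 ± 0.035. In BE2C the gap was 0.91 ± 0.047 for ACAT2 and 0.38 ± 0.038 for IDI1. On the other side, INSIG2 (−0.73 ± 0.096 in BE2C and −0.83 ± 0.098 in Kelly), ACSS2 (−1.25 ± 0.073 and −0.66 ± 0.14) and SC5D (−0.33 ± 0.035 and −0.14 ± 0.049) were lower with shAhR-1 than with shAhR-2 in both lines. The SC5D call in Kelly was lost without Kelly shAhR-2 replicate 1 (−0.11, adjusted p 0.0771). For SREBF2 the gap was 0.030 ± 0.032 in BE2C (adjusted p 0.399) and 0.16 ± 0.029 in Kelly (adjusted p 1.29e-06).

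Called changes of opposite sign between the hairpins, which share their controls, were found for INSIG2, SREBF1, STARD4 and ACSS2 in BE2C, 4 of 35 members (11.4%) and 12.6% of all genes. In Kelly they were found for PMVK, INSIG2, STARD4, FADS1 and ELOVL6, 5 of 35 members (14.3%) and 22.4% of all genes. For the same hairpin, SREBF1 and FADS1 were called in opposite directions in the lines with shAhR-1, 2 of 35 members (5.71%) where 5.55% of all genes were, and no member was with shAhR-2, where 10.4% of all genes were. None of these 4 shares stood well above that of all genes.

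The change in BE2C was set against that in Kelly for the same hairpin. The difference was taken as the log2 fold change in BE2C minus that in Kelly, so that a positive value means a weaker fall or a stronger rise in BE2C. With shAhR-2 it was positive for 16 members and negative for 8 past the test, where 28.8% and 25.8% of all genes were. With shAhR-1 it was positive for 9 and negative for 7, where 17.5% and 18.2% of all genes were. With shAhR-2 the widest called differences were those of HMGCS1, FDFT1, IDI1, ACSS2 and MSMO1. HMGCS1 differed by 1.42 ± 0.052 (adjusted p 1.07e-27), FDFT1 by 1.21 ± 0.075 (adjusted p 6.31e-19), IDI1 by 1.21 ± 0.061 (adjusted p 3.57e-22) and MSMO1 by 0.92 ± 0.066 (adjusted p 7.48e-17). STARD4 differed by 0.79 ± 0.057 and ACSS2 by 0.97 ± 0.13. PMVK (−0.85 ± 0.096, adjusted p 1.29e-10), DHCR7 (−0.39 ± 0.066) and LSS (−0.36 ± 0.086) fell further in BE2C. For SREBF1 the difference was −0.13 ± 0.077 and for SQLE −0.026 ± 0.043, and neither passed the test (adjusted p 0.139 and 0.659). That of SREBF1 passed without BE2C shAhR-2 replicate 2 (−0.20, adjusted p 0.0427), and with no filter on low counts, with a filter at a mean CPM of 1 or with counts halved (−0.21 to −0.18, adjusted p 0.0297 to 0.0334). For MVD it was −0.020 ± 0.091, which did not pass the test. With shAhR-1 the widest difference was that of SCD (0.56 ± 0.036, adjusted p 6.7e-18), which fell further in Kelly libraries labelled shAhR-1.

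**Figure D4:**
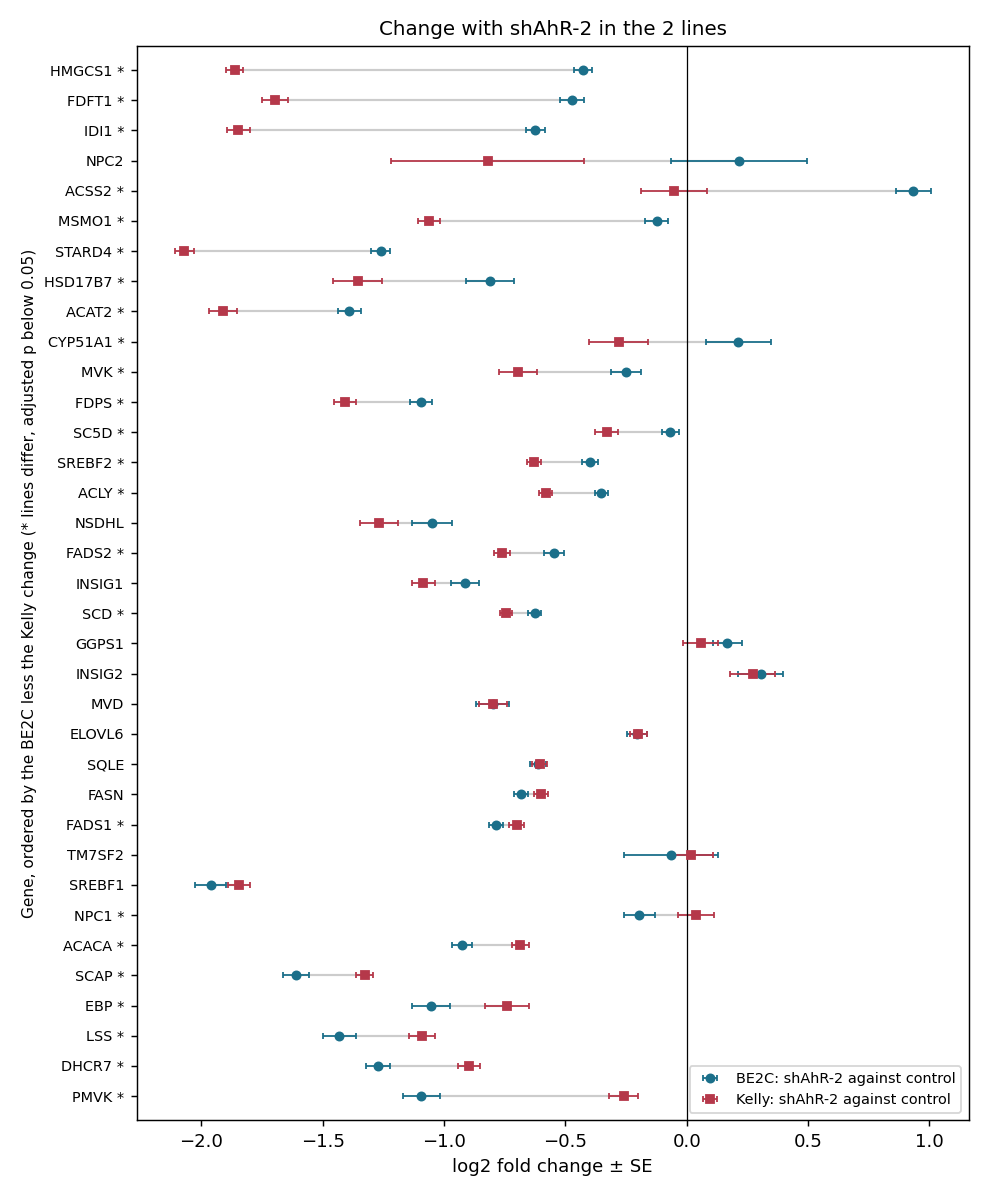
Log2 fold change with shAhR-2 against control (points, with SE) of each of the 35 genes in BE2C (circles) and Kelly (squares), ordered by the difference between the lines. An asterisk marks genes whose change differed between the lines at an adjusted p below 0.05. The longest bars are those of HMGCS1, FDFT1 and IDI1, with Kelly the lower, while SREBF1 and SQLE lie close together.

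In control cells the share of members that differed between the lines was near that of all genes. Of the 35, 15 were higher in BE2C than in Kelly, where 37.2% of all genes were, and 14 were lower, where 39.0% were. As log2 fold changes of BE2C control over Kelly control, SC5D (1.82 ± 0.039) and ACSS2 (1.82 ± 0.095) stood highest. TM7SF2 (−1.65 ± 0.14), SREBF1 (−1.20 ± 0.048), FASN (−1.15 ± 0.032), SCAP (−1.02 ± 0.039) and SREBF2 (−0.78 ± 0.030) stood lowest, each with adjusted p at or below 2.07e-14. SREBF1, SREBF2 and SCAP, the genes of both factors and of their escort, were thus all lower in BE2C. Per kb of exon, SCD was the most abundant member in both lines, at 172 ± 0.907 CPM per kb in BE2C and 216 ± 2.56 in Kelly (SD, n = 3). In BE2C ACLY followed at 112 ± 1.42 and then FASN at 66.6 ± 3.06. In Kelly FASN followed at 147 ± 0.734 and then ACLY at 122 ± 2.26. SQLE was the most abundant sterol enzyme, at 53.4 ± 0.239 in BE2C and 48.98 ± 1.05 in Kelly. SREBF2 exceeded SREBF1 in both lines, at 30.97 ± 0.756 against 4.90 ± 0.0427 CPM per kb in BE2C and 53.2 ± 1.55 against 11.2 ± 0.202 in Kelly. NPC2 was the least abundant, at 0.42 ± 0.0306 in BE2C and 0.283 ± 0.0196 in Kelly.

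**Figure D5:**
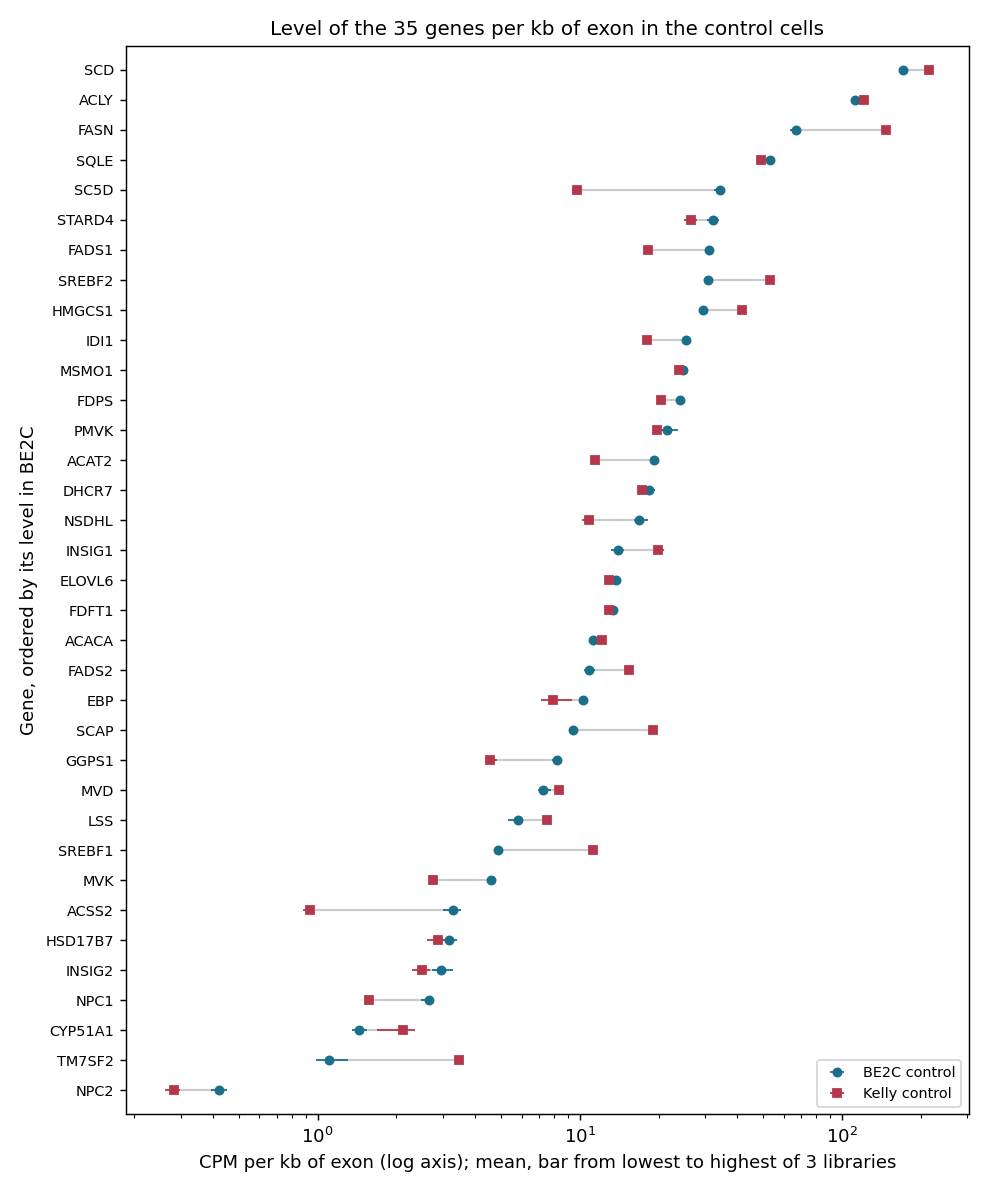
Level per kb of exon of the 35 genes in control cells of BE2C (circles) and Kelly (squares), on a log axis, with bars from the lowest to the highest of 3 libraries. SCD, ACLY and FASN are at the top in both lines, SC5D and ACSS2 lie to the right in BE2C, and SREBF1, SCAP and FASN lie to the right in Kelly.

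Genes next to these pathways changed in both directions. Of 18 other sterol handling genes tested, 9 fell and 4 rose with shAhR-1 in BE2C and in the Kelly libraries so labelled, while with shAhR-2 7 fell and 11 rose in BE2C and 5 fell and 8 rose in Kelly. The shares of all genes that fell or rose were those given above for each comparison, 25.2% to 31.0% with shAhR-1 and 37.2% to 38.2% with shAhR-2. SOAT1, which esterifies cholesterol, changed by −0.97 ± 0.049 with shAhR-1 and −2.02 ± 0.052 with shAhR-2 in BE2C, and −0.75 ± 0.051 in the libraries labelled shAhR-1 and −2.59 ± 0.059 with shAhR-2 in Kelly. TMEM97, a sterol-responsive membrane protein that binds NPC1, changed by −0.44 ± 0.038 with shAhR-1 and −1.91 ± 0.040 with shAhR-2 in BE2C, and −0.46 ± 0.034 in the libraries labelled shAhR-1 and −1.08 ± 0.035 with shAhR-2 in Kelly. GRAMD1A, which carries sterols from the plasma membrane to the endoplasmic reticulum, rose in all 4, by 0.64 ± 0.041 with shAhR-1 and 1.18 ± 0.040 with shAhR-2 in BE2C, and 0.16 ± 0.039 in the libraries labelled shAhR-1 and 1.09 ± 0.037 with shAhR-2 in Kelly. RNF139, a ubiquitin ligase of the endoplasmic reticulum, also rose in all 4 (0.18 ± 0.059, 0.14 ± 0.059, 0.20 ± 0.052 and 0.74 ± 0.050 in the same order).

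Of 12 genes that use isoprenoids, 3 fell and 3 rose with shAhR-1 in BE2C, 9 fell and 1 rose with shAhR-2 in BE2C, 5 fell and 4 rose in Kelly libraries labelled shAhR-1, and 5 fell and 5 rose in Kelly with shAhR-2. In the same order, 27.1%, 37.2%, 31.0% and 38.2% of all genes fell and 25.2%, 38.0%, 29.6% and 37.2% rose. These shares also apply to the lists below in this paragraph, and some of the counts were near them. FNTA, a subunit of the farnesyl and geranylgeranyl transferases, rose in all 4 (0.15 ± 0.046 with shAhR-1 and 0.48 ± 0.045 with shAhR-2 in BE2C, and 0.23 ± 0.053 in the libraries labelled shAhR-1 and 0.54 ± 0.052 with shAhR-2 in Kelly). Of 16 other genes of fatty acid and lipid assembly, 8 fell and 5 rose with shAhR-1 in BE2C, 10 fell and 6 rose with shAhR-2 in BE2C, 9 fell and 3 rose in Kelly libraries labelled shAhR-1, and 9 fell and 5 rose in Kelly with shAhR-2. LPIN1, a phosphatidate phosphatase, fell in all 4 (−0.33 ± 0.036 with shAhR-1 and −1.08 ± 0.036 with shAhR-2 in BE2C, and −0.15 ± 0.034 in the libraries labelled shAhR-1 and −1.27 ± 0.036 with shAhR-2 in Kelly). SLC25A1, the mitochondrial citrate carrier, also fell in all 4 (−0.41 ± 0.066 with shAhR-1 and −0.14 ± 0.064 with shAhR-2 in BE2C, and −1.03 ± 0.054 in the libraries labelled shAhR-1 and −0.77 ± 0.052 with shAhR-2 in Kelly). SCD5, a second stearoyl-CoA desaturase, rose in all 4 (1.01 ± 0.17 with shAhR-1 and 1.95 ± 0.17 with shAhR-2 in BE2C, and 0.78 ± 0.050 in the libraries labelled shAhR-1 and 0.38 ± 0.051 with shAhR-2 in Kelly), the reverse of SCD. ACSL4, which activates polyunsaturated fatty acids, rose by up to 2.06 ± 0.038 in Kelly with shAhR-2 and by 0.33 ± 0.041, 0.65 ± 0.040 and 0.87 ± 0.040 in BE2C with shAhR-1, BE2C with shAhR-2 and Kelly libraries labelled shAhR-1. Of 15 genes of fatty acid oxidation, 8 fell and 4 rose with shAhR-1 in BE2C, 8 fell and 6 rose with shAhR-2 in BE2C, 8 fell and 4 rose in Kelly libraries labelled shAhR-1, and 4 fell and 8 rose in Kelly with shAhR-2. HADHA of the trifunctional protein (−0.081 ± 0.027 with shAhR-1 and −0.77 ± 0.027 with shAhR-2 in BE2C, and −0.40 ± 0.027 in the libraries labelled shAhR-1 and −0.74 ± 0.027 with shAhR-2 in Kelly) and the thiolase ACAA2 (−0.21 ± 0.049 with shAhR-1 and −0.16 ± 0.049 with shAhR-2 in BE2C, and −0.37 ± 0.054 in the libraries labelled shAhR-1 and −0.24 ± 0.053 with shAhR-2 in Kelly) fell in all 4, and CPT1C, the carnitine palmitoyltransferase of neurons, rose in all 4 (0.68 ± 0.082 with shAhR-1 and 0.73 ± 0.081 with shAhR-2 in BE2C, and 0.11 ± 0.036 in the libraries labelled shAhR-1 and 0.11 ± 0.036 with shAhR-2 in Kelly).

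Most markers of dividing cells fell in BE2C with either hairpin and in Kelly with shAhR-2. Of 12 such markers, 10 fell with shAhR-1 in BE2C, where 27.1% of all genes did, and 12 with shAhR-2, where 37.2% did. In Kelly libraries labelled shAhR-1, 6 fell, where 31.0% of all genes did, and all 12 fell in Kelly with shAhR-2, where 38.2% did. Their summed level was 2406 to 2428 CPM with shAhR-1 and 1436 to 1458 CPM with shAhR-2 in BE2C, against 4252 to 4306 CPM in control. In Kelly it was 2223 to 2349.6 CPM in the libraries labelled shAhR-1 and 498 to 505 CPM with shAhR-2, against 2732 to 2811 CPM in control. With shAhR-1, 1 of the 12 rose in each line. The median log2 fold change of the 12 was −0.88 with shAhR-1 and −1.38 with shAhR-2 in BE2C, and in Kelly it was −0.088 in the libraries labelled shAhR-1 and −2.41 with shAhR-2. MAD2L1 and TOP2A of the dividing cell list fell in all 4, with log2 fold changes of −2.19 ± 0.043 and −2.63 ± 0.032 in Kelly with shAhR-2. None of the 12 was at 0 in any group, and their part in the change of the members was not tested.

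Other cell types were looked for in the same way. The 7 adrenergic neuroblastoma markers were present in all groups, summing to 2956 to 3035 CPM with shAhR-1 and 1573 to 1625 CPM with shAhR-2 in BE2C, against 3168 to 3281 CPM in control. In Kelly they summed to 2644 to 2681 CPM in the libraries labelled shAhR-1 and 2530.3 to 2562 CPM with shAhR-2, against 5035 to 5340.3 CPM in control. Of the 7, 4 fell and 2 rose with shAhR-1 in BE2C and in the Kelly libraries so labelled. With shAhR-2, 6 fell and 1 rose in each line. Of all genes, 27.1% to 31.0% fell and 25.2% to 29.6% rose with shAhR-1. With shAhR-2, 37.2% to 38.2% fell and 37.2% to 38.0% rose. DBH and TH, which make catecholamines, were among the 4 that fell in all 4 comparisons, where 8.88% of all genes did. In each line 1 marker rose with both hairpins, where 14.6% of all genes in BE2C and 12.9% in Kelly did. The 9 Schwann cell and glial markers summed to 26.2 to 28.1 CPM with shAhR-1 and 72.5 to 81.1 CPM with shAhR-2 in BE2C, against 22.4 to 26.2 CPM in control. They summed to 17.4 to 20.8 CPM in Kelly libraries labelled shAhR-1 and 72.9 to 78.4 CPM in Kelly with shAhR-2, against 31.2 to 32.8 CPM in control. With shAhR-2, 5 of 7 tested glial markers rose and 0 fell in BE2C, where 38.0% of all genes rose. In Kelly with shAhR-2, 5 of 6 rose, where 37.2% of all genes did, and 1 fell, where 38.2% did. With shAhR-1, 1 of 7 rose and 0 fell in BE2C, and 0 of 6 rose and 1 fell in the Kelly libraries so labelled. CDH19 was at 0 in all 6 groups. The 12 fibroblast markers summed to 310.5 to 321 CPM with shAhR-1 and 519 to 529 CPM with shAhR-2 in BE2C, against 292 to 307 CPM in control. In Kelly they summed to 444 to 477 CPM in the libraries labelled shAhR-1 and 486 to 499 CPM with shAhR-2, against 567 to 615 CPM in control. Of 10 fibroblast markers tested in BE2C, 5 rose and 2 fell with shAhR-1, and 8 rose and 1 fell with shAhR-2. Of 9 tested in Kelly, 2 rose and 5 fell in the libraries labelled shAhR-1, and 2 rose and 4 fell with shAhR-2. The shares of all genes with each hairpin are those given above in this paragraph. FAP was at 0 in 5 of the 6 groups, and COL1A2 was at 0 in both groups with shAhR-2. The 7 leukocyte markers summed to at most 1.09 CPM in any library. The part of these genes in the change of the members was not tested.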

How the data were processed

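RNA sequencing was done on 18 libraries of BE2C and Kelly cells, 3 per group. Total RNA came from a miRNeasy extraction and was depleted of ribosomal RNA (RNA HyperPrep with RiboErase), per the labels' protocols. The values are raw counts per gene, deposited by the authors in 1 table per line. Per the submitters' processing notes, CASAVA 1.8.2 and STAR 2.7.9a were used with GRCh38.p7. Neither the counting tool nor its annotation or strand setting is given in the sources used here. Even values made up 68.3% to 72.5% of the counts from 1 to 20, as if both mates of a pair were counted, and halved counts were tried.

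The 3 groups of each line were fitted by themselves in edgeR 4.0.16 (filterByExpr, TMM, glmQLFit, glmQLFTest) under R 4.3.3, with calls at an adjusted p (Benjamini-Hochberg, over all genes) below 0.05. Interactions and the comparison of controls came from 1 fit of all 18 libraries. SE is the fold change over the root of F. CPM per kb used exon lengths from GENCODE 29. Alternatives were RLE size factors, a replicate block, no low-count filter, a filter at a mean CPM of 1, only the groups compared, DESeq2 1.42.0, halved counts, no mitochondrial genes and leaving out each library.

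Members and lists were chosen with earlier results of these data known. Values per library are given for the SREBP control genes and chosen enzymes, for members called in 1 direction in all 4 comparisons and for the leading member of each role and line, and other members are given by their changes. From each list at most 4 genes called alike in all 4 comparisons are named. Replicates were compared by chi-square, and no pair was a duplicate. Promoters are from RefSeq, read with Python 3.11.15.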

Additional observations from a re-analysis of the deposited data

Results flagged for a closer look

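Several members changed by a different amount in the lines under the same hairpin, by the test of the interaction in the fit of all 18 libraries (adjusted p below 0.05). Values are the log2 fold change in BE2C minus that in Kelly. With shAhR-2 the mevalonate pathway gave 0.50 for ACAT2, 1.42 for HMGCS1, 0.43 for MVK, −0.85 for PMVK and 1.21 for IDI1. The steps to lanosterol gave 0.29 for FDPS, 1.21 for FDFT1 and −0.36 for LSS. The steps to cholesterol gave 0.48 for CYP51A1, 0.92 for MSMO1, 0.53 for HSD17B7, −0.33 for EBP, 0.24 for SC5D and −0.39 for DHCR7. Among control and transport genes the values were 0.21 for SREBF2, −0.30 for SCAP, 0.79 for STARD4 and −0.25 for NPC1. Fatty acid synthesis gave −0.26 for ACACA, 0.21 for ACLY, 0.10 for SCD, −0.10 for FADS1, 0.19 for FADS2 and 0.97 for ACSS2. The call for CYP51A1 was lost without BE2C control replicate 1 or 3, BE2C shAhR-2 replicate 1, Kelly control replicate 1 or 2 or Kelly shAhR-2 replicate 2 or 3 (0.38 to 0.46, adjusted p 0.055 to 0.106), and with no filter on low counts, with a filter at a mean CPM of 1 or with counts halved (0.40 to 0.43, adjusted p 0.0511 to 0.0788). That for EBP was lost without Kelly control replicate 2 or 3 or Kelly shAhR-2 replicate 1 (−0.28 to −0.27, adjusted p 0.0789 to 0.0979). NPC1 lost it without BE2C control replicate 2 or 3 or Kelly shAhR-2 replicate 1 (−0.23 to −0.22, adjusted p 0.0519 to 0.0663). SCD lost it without Kelly shAhR-2 replicate 1 (0.082, adjusted p 0.069), and with no filter on low counts, with a filter at a mean CPM of 1 or with counts halved (0.024 to 0.053, adjusted p 0.187 to 0.81), and FADS1 lost it without BE2C control replicate 2 (−0.10, adjusted p 0.0674). FADS2 lost it with no filter on low counts (0.12, adjusted p 0.0814). With no filter on low counts the value was 0.14 for SREBF2, 0.13 for ACLY and −0.18 for FADS1, each still called. FASN, at −0.10 ± 0.045, was not called (adjusted p 0.0602), and it passed without BE2C control replicate 3, BE2C shAhR-1 replicate 1, 2 or 3, BE2C shAhR-2 replicate 2, Kelly control replicate 2, Kelly shAhR-1 replicate 1, 2 or 3 or Kelly shAhR-2 replicate 1 or 3 (−0.14 to −0.11, adjusted p 0.00747 to 0.046), and with RLE size factors, with no filter on low counts, with a filter at a mean CPM of 1, with a replicate block, with only the groups compared, with counts halved or without mitochondrial genes (−0.18 to −0.10, adjusted p 7.21e-06 to 0.0465).

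With shAhR-1, AHR was not shown to fall in Kelly and was not tested in BE2C. The values for this hairpin were −0.32 for ACAT2, 0.31 for HMGCS1, −0.46 for PMVK, 0.37 for FDFT1, 0.50 for CYP51A1 and 0.37 for NSDHL. They were 0.35 for INSIG1, 0.27 for SREBF1, −0.18 for SCAP and −0.29 for NPC1. In fatty acid synthesis they were 0.21 for FASN, 0.56 for SCD, −0.30 for FADS1, −0.15 for FADS2, −0.30 for ELOVL6 and 0.41 for ACSS2. The call for CYP51A1 was lost without BE2C control replicate 1 or 3, BE2C shAhR-1 replicate 1 or 3, Kelly control replicate 1 or 2 or Kelly shAhR-1 replicate 1 or 2 (0.38 to 0.49, adjusted p 0.0603 to 0.153), and with no filter on low counts, with a replicate block or by DESeq2 (0.47 to 0.49, adjusted p 0.0501 to 0.0524). FADS2 lost it without BE2C control replicate 1, BE2C shAhR-1 replicate 2 or 3, Kelly control replicate 2 or 3 or Kelly shAhR-1 replicate 1 (−0.14 to −0.11, adjusted p 0.0533 to 0.129). ACSS2 lost it without BE2C control replicate 2, BE2C shAhR-1 replicate 3, Kelly control replicate 1 or 2 or Kelly shAhR-1 replicate 1 or 3 (0.33 to 0.39, adjusted p 0.0507 to 0.108), and with no filter on low counts or with counts halved (0.38, adjusted p 0.0558 to 0.0661), and NPC1 lost it without Kelly shAhR-1 replicate 1 (−0.24, adjusted p 0.0652).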

How the results depend on the processing

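Under the alternatives that keep all libraries, each count of members higher or lower stayed within 1.5 times its value, and no change of a member turned its sign while called. Leaving out 1 library at a time, the members that rose with shAhR-1 in BE2C numbered 1 to 2, and those that rose with shAhR-2 in Kelly numbered 0 to 1, being 0 without Kelly control replicate 3. Members that fell in all 4 comparisons numbered 15 to 17. Those that fell with both hairpins numbered 18 to 22 in BE2C and 21 to 22 in Kelly, where all libraries gave 19 and 23. Replicate numbers did not pair the libraries, since the deviations of libraries with the same number correlated at −0.028 to 0.036 in BE2C and −0.016 to 0.014 in Kelly, and with a replicate block 16 members fell in all 4 comparisons and 30 in Kelly with shAhR-2. Among single members and comparisons, DESeq2 lost 6 calls and gained 5, halved counts lost 9 and gained 10, no filter on low counts lost 11 and gained 10, the filter at a mean CPM of 1 lost 11 and gained 7, RLE size factors lost 4 and gained 4, a replicate block lost 4 and gained 3, the groups compared alone lost 1 and gained 2, and leaving out mitochondrial genes gained 5.

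The controls are shared by both hairpins of a line, and each line had 2 hairpins that differ in many members, so effects of a hairpin beyond AHR cannot be told apart from loss of AHR. AHR was too sparse to be tested in BE2C and was not shown to fall in Kelly libraries labelled shAhR-1. Transcript levels are no measure of sterols, fatty acids or SREBP cleavage. NPC2, CYP51A1, TM7SF2 and, in Kelly, ACSS2 were sparse, which limits their precision. Totals counted reads and not molecules.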
